A study of Mus musculus with 6 samples.

Results

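The second postnatal week of mouse hindlimb muscle was followed as the difference between postnatal day 14 (P14) and postnatal day 7 (P7). The genes described are all those with at least 1 FPKM (a read-fragment density scaled by gene length and sequencing yield) in at least 2 of the 4 libraries of the 2 stages. They were 12672 of the 39010 genes in the deposited table, and 11430 of them were protein-coding. Of these genes 11028 reached 1 FPKM in all 4 libraries, 731 in 3 and 913 in exactly 2. Just inside this limit, genes reaching it in exactly 2 libraries had a median over genes of 1.05 FPKM (mean of the 4 libraries), and just outside it the 1128 genes reaching it in 1 library had 0.788 FPKM. In 285 genes only the P7 libraries reached it and in 309 only the P14 libraries, so these genes had to differ between the stages. Such genes enter the list counts and named genes below, with Chrnd, Mbnl3 and Mmp9 among the falls.

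All mice were wild type on a mixed strain background and untreated as far as the labels say, and age was the labelled difference between groups. Each of P2, P7 and P14 had 2 libraries of hindlimb skeletal muscle, made from total RNA after ribosomal depletion. The comparison asks how muscle expression changes as fibres mature and grow after the first week, in a study concerned with myoblast fusion, migration and fibre growth. Whole muscle also holds vessels, connective tissue, nerve and blood cells, and in bulk RNA fewer cells of a type and less RNA per cell cannot be told apart.

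During the first weeks after birth, muscle fibres replace embryonic and neonatal myosin heavy chains with adult ones, lose the extra nerve contacts of the newborn, and build the calcium release and energy supply systems of adult muscle. New nuclei come from dividing satellite cells that fuse with fibres, and this supply wanes as the animal approaches weaning. The same weeks bring rising thyroid hormone and glucocorticoid levels in rodents, the end of a growth program rich in imprinted genes, and the opening of the eyes with more walking.

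Depth relative to the first P2 library, read from the step sizes of low FPKM values, was 95.2% and 84.3% at P7 and 73.4% and 75.1% at P14, while the absolute depth is unknown. Between 12175 and 12366 genes reached 1 FPKM in the P7 and P14 libraries. Log2 values of the 2 libraries correlated across members at 0.968 at P7 and at P14, which is a correlation over genes, not over replicates. The first P7 library held 61.2 FPKM of Xist and 0.0120 FPKM of the Y-linked Ddx3y, the second P7 library 0.410 and 17.2 FPKM, and both P14 libraries carried Ddx3y at 28.4 and 24.5 FPKM. The sex makeup of the stages thus differed, and its part in the results was not tested apart from the fit with a sex term given under the processing alternatives. Whether the libraries are single animals or pools is not given in the sources used here, and the p-values below cover no more than the spread among the libraries. Of 7 matched markers of skeletal muscle 6 were present in every library. The other, titin (Ttn), was at 609 and 624 FPKM at P7, 0 in the first P14 library and 926 FPKM in the second, and an exact 0 in such a table can be a failed estimate, so genes listed at 0 are described by their library values without a fold.

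The typical gene was higher at P14 than at P7 in the library values as deposited. In the authors' stage values the median log2 of P14 over P7 was 0.087, over members with at least 1 FPKM at both stages. That ratio has no added 1 and its scaling is not given, so it is not on the scale used below. The median difference over the members was 0.26 on the log2(FPKM + 1) scale, and 0.319 with 0.1 added in place of 1. It was 0.017 with median-of-ratios scaling and -0.153 with libraries scaled to their protein-coding sum, so it depends on the scaling. As deposited, 56.6% of members had both P14 libraries above both P7 libraries against 13.9% with both below. The median difference rose with the level of the gene, from 0.07 among 2697 members under 2 FPKM to 0.68 among 633 members at 50 FPKM and over. Every change below is therefore stated relative to the median shift of 0.26 unless it is called as deposited, and a high-level gene near a relative change of 0.4 moved like its level class. Changes on this scale understate the change of low genes, because 1 was added to each value.

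Relative to that shift 247 members (1.95%) were higher and 349 (2.75%) were lower at P14 at an adjusted p below 0.05, by limma's moderated test with Benjamini-Hochberg adjustment over 13566 fitted genes. The list counts below are to be read beside these shares of 1.95% and 2.75%. Of the higher genes 225 were protein-coding, and of the lower genes 283. In each called gene the 2 libraries of one stage lay wholly above those of the other. Without subtracting the shift the counts were 1187 higher (9.37%) and 213 lower (1.68%), and with median-of-ratios scaling, which rescales each library before the logarithm, they were 997 higher (7.87%) and 756 lower (5.97%). The number called rested on each of the 4 libraries: it was 8 higher and 9 lower without P7 replicate 1, 3 and 12 without P7 replicate 2, 10 and 14 without P14 replicate 1, and 25 and 35 without P14 replicate 2. It rose to 810 and 710 without P2 replicate 1 and to 817 and 712 without P2 replicate 2, fits in which P2 no longer adds to the residual spread. In the 4 fits that leave out a P7 or P14 library nearly all gene list counts below were 0. The exceptions are given with their list, apart from titin (Ttn) among the skeletal muscle markers. Its change was -9.585 without P14 replicate 2, where the P14 library that remains lists Ttn at 0, a possible failed estimate. The plot of change against level places the genes named first among all members.

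**Figure D1:**
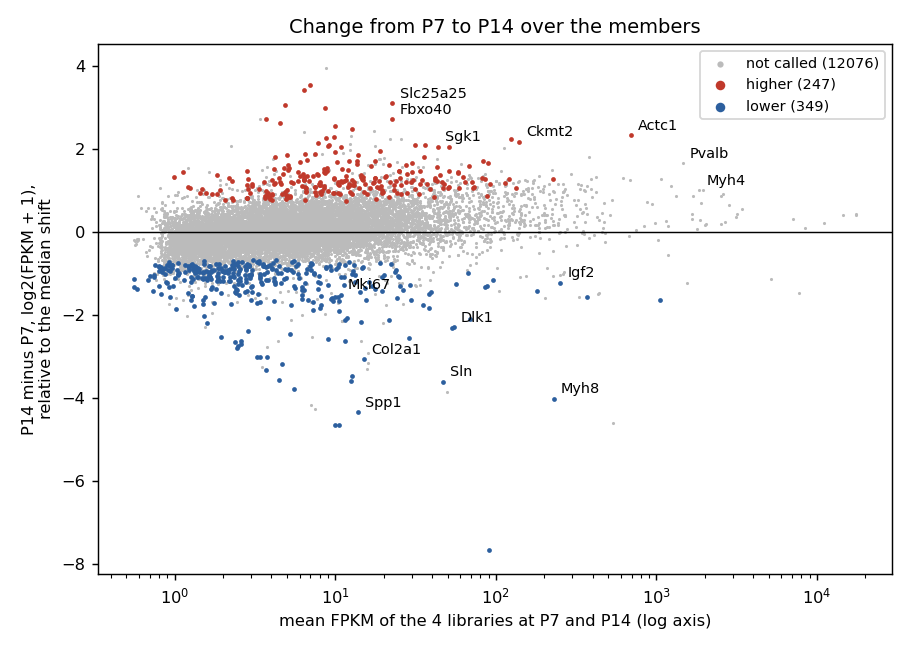
Each point is 1 of the 12672 members, with its mean FPKM over the 4 libraries at P7 and P14 on a log axis and its change from P7 to P14, relative to the median shift of 0.26, on the vertical axis. Red marks the 247 members called higher and blue the 349 called lower, and Myh4 and Pvalb lie above the line without being called.

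The largest rise of a protein-coding gene was that of Slc25a25, a mitochondrial carrier that exchanges ATP-Mg for phosphate. It was at 2.82 and 3.49 FPKM at P7 and 50.98 and 33.4 FPKM at P14, a relative change of 3.10 ± 0.23 (SE, limma adjusted p = 0.00482). Fbxo40, a muscle-specific F-box protein that marks the insulin signalling adaptor IRS1 for degradation, followed among the called genes at 3.96 and 4.803 FPKM at P7 and 45.7 and 36.3 FPKM at P14, a change of 2.70 ± 0.18 (limma adjusted p = 0.00362). In both genes each P14 library was several times above either P7 library, and both remained called without any one of the 6 libraries. Next came Ankrd9, an ankyrin-repeat protein, at 2.06 and 1.44 FPKM at P7 and 20.5 and 15.9 FPKM at P14, and Klhl33, a kelch-like protein, at 2.71 and 2.46 FPKM at P7 and 25.3 and 20.6 FPKM at P14. Lrrc30 (2.17 and 2.096 FPKM at P7, 20.95 and 14.1 FPKM at P14) and the tetraspanin Tspan8 (1.94 and 1.604 and 16.03 and 11.5 FPKM) rose by 2.28 and 2.14. These low genes of the P7 libraries reached 11.5 FPKM or more in each P14 library.

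The largest fall among protein-coding genes that passed the test belonged to Spp1 (osteopontin, a secreted matrix and bone protein), which went from 37.3 and 16.9 FPKM at P7 to 0.394 and 0.719 FPKM at P14, a change of -4.34 ± 0.55 (limma adjusted p = 0.0195). Myh8, the neonatal (perinatal) myosin heavy chain, came next and is the best measured of the large changes. It stood at 427 and 428 FPKM at P7 and 32.95 and 28.6 FPKM at P14, 13.9 times lower, with a change of -4.01 ± 0.21 (limma adjusted p = 0.00129). Myh8 stayed called without any one of the 6 libraries. Sarcolipin (Sln), a small membrane protein that restrains the calcium pump of the sarcoplasmic reticulum, fell from 76.7 and 95.6 to 5.44 and 10.2 FPKM, by 3.61 ± 0.33 on the log2 scale (limma adjusted p = 0.00854). The other large falls that passed the test were in Ibsp, S100a9, S100a8, Stfa1, Gm9844, Col2a1 and BC100530, most of which are known from bone, cartilage or neutrophils and are taken up with those cells. Spp1, Ibsp, Stfa1, Gm9844 and BC100530 were under 1 FPKM in both P14 libraries, so they are members through P7 alone. The fall of Gm9844 is uncertain, because 2 overlapping genes carry that symbol: the called one was at 9.51 and 8.55 FPKM at P7 and 0.558 and 0.104 FPKM at P14, and the other was near 0 at P7 and at 7.28 and 6.38 FPKM at P14.

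Some developmental forms of contractile and calcium-handling proteins fell, and the adult fast forms were higher in value, but few of the latter passed the test. Of 17 members of the list of developmental muscle isoforms 6 were lower, 2 were higher and 9 were not called, with a median change of -0.68 against 0 over all members. Myh3, the embryonic myosin heavy chain, went from 19.5 and 18.4 to 3.22 and 6.51 FPKM, a change of -2.08 ± 0.29 (limma adjusted p = 0.0224). The embryonic and atrial light chain Myl4 fell from 20.7 and 19.9 to 8.58 and 7.92 FPKM. Ryr3, the ryanodine receptor isoform of neonatal muscle, fell from 5.44 and 7.49 to 1.64 and 1.93 FPKM and Casq2, the slow and cardiac calsequestrin, from 107 and 123 to 46.2 and 64.01 FPKM. Atp1b4, a relative of sodium pump beta subunits found in the nuclear membrane of perinatal muscle, fell from 79.3 and 95.1 to 21.1 and 19.3 FPKM, by 2.31 ± 0.19 (limma adjusted p = 0.00649). In all of these genes the lowest P7 library lay above the highest P14 library, as in 13.9% of all members. Without P7 replicate 1, P7 replicate 2 or P14 replicate 1 the list held 1 fall, and without P14 replicate 2 it held 3 falls and both rises named next.

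The 2 members of that list that rose were Mybph, myosin-binding protein H, at 16.8 and 15.9 FPKM at P7 and 103 and 68.5 FPKM at P14, and Actc1, the cardiac alpha actin. Actc1 was at 162 and 216 FPKM at P7 and 1594 and 792 FPKM at P14, a change of 2.33 ± 0.36 (limma adjusted p = 0.0314). Actc1 is nearly identical in coding sequence to the skeletal alpha actin, which is not analysed here, so its value is uncertain where the counting could split such reads. The call was lost without P7 replicate 1, P7 replicate 2 or P14 replicate 1.

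All 29 members of the adult fast fibre list had a change above the shift, from 0.47 to 1.79 with a median of 1.11, and 1 was called higher. That one was Mylk2, the skeletal myosin light chain kinase, at 16.2 and 13.9 FPKM at P7 and 55 and 48.8 FPKM at P14, and its call was lost without any one P7 or P14 library. With median-of-ratios scaling 15 of 29 were called, and in a fit of the 4 P7 and P14 libraries alone 14. Myh4, the fast 2B heavy chain and the main myosin of adult mouse hindlimb, stood at 1125 and 1025 FPKM at P7 and 3001 and 2201 FPKM at P14, a change of 1.00 ± 1.19 (limma adjusted p = 0.624). Myh1, the 2X heavy chain, was at 332 and 313 FPKM at P7 and 623 and 619.9 FPKM at P14, and Myh2, the 2A heavy chain, at 106 and 72.99 FPKM at P7 and 211 and 301 FPKM at P14. For all 3 genes both P14 libraries lay above both P7 libraries, as they did in 56.6% of all members, and none was called. Their P2 libraries differed widely, with 11.7 and 248 FPKM of Myh4, and P2 supplies 1 of the 3 residual degrees of freedom of the joint fit. Without P2 the adjusted p of Myh4 was 0.0692, that of Myh1 0.0705 and that of Myh2 0.0474 by limma. Pvalb, the calcium buffer parvalbumin of fast fibres, went from 574 and 634 to 2724 and 1883 FPKM (1.65 ± 0.81, limma adjusted p = 0.246, and 0.0307 without P2), and fast myosin-binding protein Mybpc2 from 157 and 135 to 756 and 482 FPKM.

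Slow fibre genes did not move as a group, with 2 of 17 members lower (Casq2 and Sln, named above), none higher and a median of 0.24. Myh7, the slow heavy chain, had 34.2 and 27.2 FPKM at P7 and 26.1 and 84.5 FPKM at P14, so the stages overlapped. Myoglobin (Mb), the oxygen store of oxidative fibres, was at 36.2 and 39.95 FPKM at P7 and 192 and 182 FPKM at P14, a change of 2.01 ± 0.52 that was not called (limma adjusted p = 0.0708, and 0.0107 without P2). The second P14 library stood above the first by a median of 0.74 in the slow fibre genes and below it by 0.45 in the adult fast genes. The labels name no difference between these libraries. The call of Sln held without either P14 library and was lost without either P7 library. The plot of contractile and metabolic genes by library shows the 6 developmental forms that fell, with Sln beside them, against the spread of the fast forms at P2. The 2 developmental forms that rose are not plotted.

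**Figure D2:**
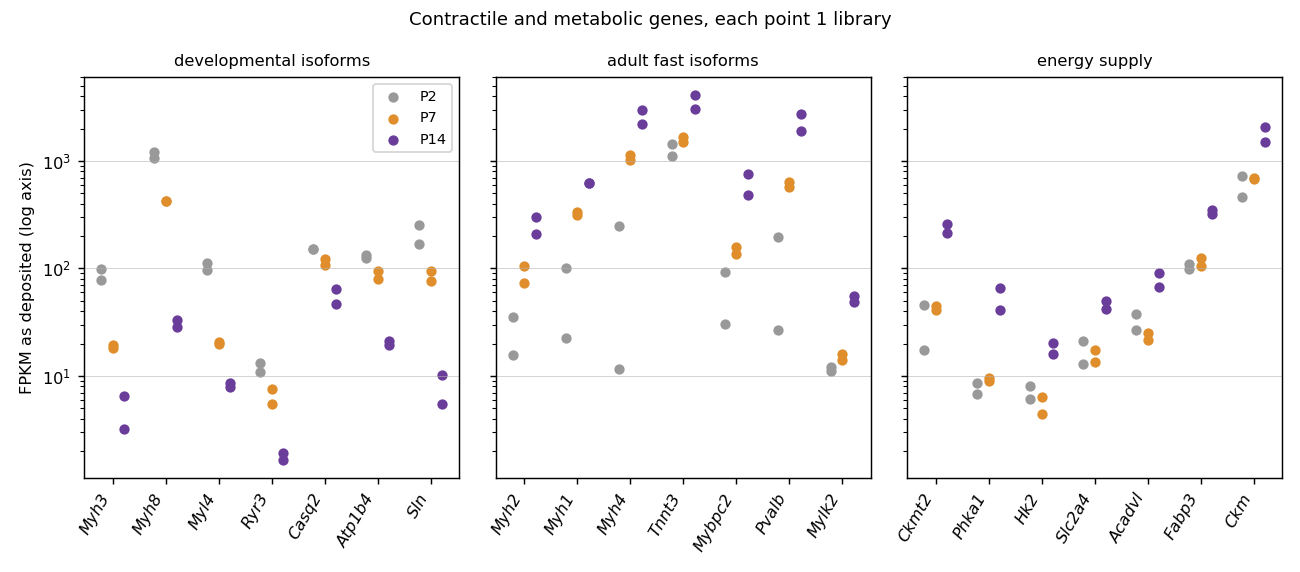
Points are single libraries at P2 (grey), P7 (orange) and P14 (purple), 2 per stage, in FPKM as deposited on a log axis. Myh8 drops from 427 and 428 FPKM at P7 to 33.0 and 28.6 FPKM at P14, while Myh4 spans 11.7 to 248 FPKM at P2 and 1025 to 3001 FPKM later, and Ckmt2 rises from 41.3 and 44.8 to 261 and 212 FPKM.

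Of 40 members of the excitation-contraction coupling list 4 were higher and 1 lower, with 36 above the shift and a median of 0.70. With median-of-ratios scaling 19 were higher, and without any one P7 or P14 library none of the list was called. The 4 were Stac3, an adaptor that joins the voltage sensor to calcium release, Scn4a, the muscle sodium channel, Clcn1, the chloride channel that steadies the resting membrane, and Kcna7, a potassium channel. Stac3 was at 35.7 and 26.1 FPKM at P7 and 107 and 81.3 FPKM at P14 and Scn4a at 7.41 and 6.17 FPKM at P7 and 24.7 and 19.8 FPKM at P14. Clcn1 was at 9.33 and 9.45 FPKM at P7 and 29.9 and 26.1 FPKM at P14 and Kcna7 at 3.56 and 3.06 FPKM at P7 and 14.1 and 10.6 FPKM at P14. In each the lower P14 library was more than 2 times the higher P7 library, and the fall was that of Ryr3.

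Most energy supply genes lay above the shift. Over all members 1.95% were called higher and 2.75% lower, and the oxidative phosphorylation count is near the first share. In the glycolysis and glycogen list 8 of 38 members were higher and none lower (median 1.04), in the fatty acid list 7 of 30 and none (median 0.77), in the tricarboxylic acid cycle list 3 of 25 and 1 lower (median 0.86), and in the oxidative phosphorylation list 2 of 59 and none (median 0.93, 58 of 59 above the shift). Under median-of-ratios scaling the higher counts were 25, 20, 17 and 42. Without any one P7 or P14 library they were 0, except for 1 glycolysis and glycogen gene without P14 replicate 2. The summed level of the skeletal muscle markers stood at 4571 and 4962 FPKM at P7 and 10630 and 8958 FPKM at P14, and the part of a larger muscle share in these rises was not tested. These sums include Ttn, listed at 0 in the first P14 library and at 926 FPKM in the second.

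Phka1, the muscle alpha subunit of phosphorylase kinase that starts glycogen breakdown, led the glycogen genes at 9.62 and 9.03 FPKM at P7 and 65.2 and 40.8 FPKM at P14, a change of 2.10 ± 0.25 (limma adjusted p = 0.0164). On the side of glycogen synthesis the synthase Gys1 (13.6 and 10.8 to 37.9 and 32.7 FPKM) and the primer protein Gyg (19.5 and 22.2 to 67.9 and 58 FPKM) were called. Transcripts for glucose entry and capture rose with them. The insulin-responsive transporter Slc2a4 (GLUT4) was at 17.6 and 13.5 FPKM at P7 and 50.04 and 41.6 FPKM at P14. Hexokinase Hk2 was at 6.31 and 4.38 FPKM at P7 and 20.2 and 15.98 FPKM at P14. Glucose uptake itself was not measured. Ldhb, the heart-type lactate dehydrogenase subunit, and Pfkfb1, a regulator of phosphofructokinase, were also called higher. The lactate exporter Slc16a3 was at 17.1 and 10.5 FPKM at P7 and 63.5 and 39.3 FPKM at P14 and was not called.

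For fatty acids the called genes ran from the cytosolic binding protein to the mitochondrial enzymes. Fabp3, the heart-type fatty acid binding protein, was at 105 and 126 FPKM at P7 and 352 and 319 FPKM at P14, a change of 1.28 ± 0.21 (limma adjusted p = 0.0324). The carnitine shuttle was represented by Cpt1b, Slc25a20 and Cpt2, with changes of 1.05, 0.79 and 0.91. Acadvl, the very-long-chain acyl-CoA dehydrogenase, went from 25 and 21.6 to 89.8 and 67.8 FPKM, the largest change of the list at 1.45 ± 0.24 (limma adjusted p = 0.03402), and Hadhb, a subunit of the trifunctional protein, went from 38.1 and 43.8 to 113 and 92.5 FPKM. Pnpla2, the triglyceride lipase ATGL, was at 9.72 and 7.45 FPKM at P7 and 25.7 and 27.98 FPKM at P14. Pdk4, the pyruvate dehydrogenase kinase that spares glucose when fat is burned, rose from 23.6 and 30.9 to 96.4 and 83.03 FPKM, whereas its relative Pdk3 fell from 2.55 and 2.24 to 1.32 and 1.39 FPKM.

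Of the oxidative phosphorylation genes Cycs, cytochrome c, was called at 42.7 and 57.4 FPKM at P7 and 149 and 119 FPKM at P14. The 3 largest changes of that list, in Atp5e (1.48), Cox7a1 (1.39) and Uqcrq (1.39), were not called. The 13 mRNAs made in the mitochondrion itself had a median of 0.24 and none was called. Mfn1, a fusion protein of the outer mitochondrial membrane, was the called member of 23 mitochondrial regulators, at 11.99 and 12.8 FPKM at P7 and 29.7 and 38.1 FPKM at P14.

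In creatine metabolism Ckmt2, the mitochondrial creatine kinase of muscle, rose while Gatm, the first enzyme of creatine synthesis, fell. Ckmt2 was at 41.3 and 44.8 FPKM at P7 and 261 and 212 FPKM at P14, a change of 2.17 ± 0.41 (limma adjusted p = 0.0422). Gatm was at 35.5 and 34.5 FPKM at P7 and 13.2 and 13.1 FPKM at P14, a change of -1.60 ± 0.18 (limma adjusted p = 0.0149). The muscle adenylosuccinate synthase Adssl1 rose as well, from 23.8 and 19.1 to 76.5 and 60.1 FPKM. The cytosolic creatine kinase Ckm was at 688 and 681 FPKM at P7 and 2089 and 1495 FPKM at P14 and was not called (limma adjusted p = 0.0877, and 0.0316 with median-of-ratios scaling).

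**Figure D3:**
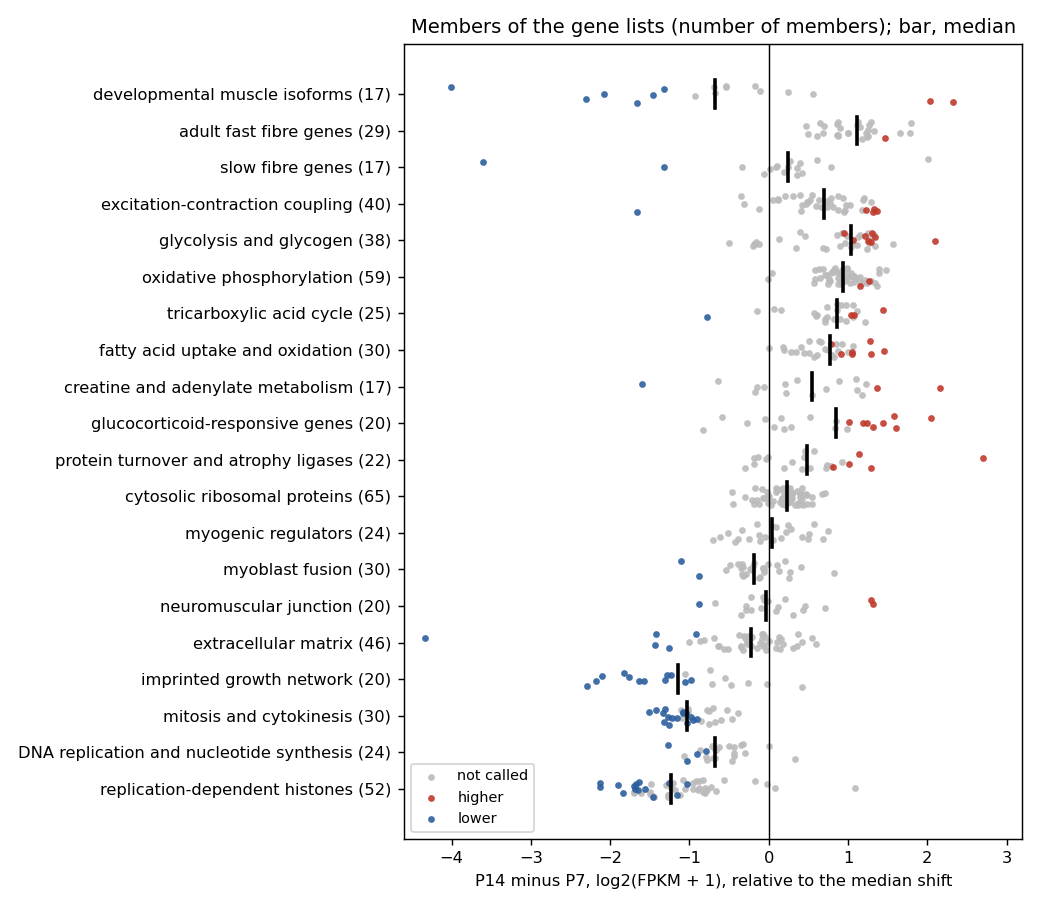
Each point is a member of a gene list at its change from P7 to P14 on the log2(FPKM + 1) scale relative to the median shift, red where called higher, blue where called lower and grey where not called, and the black bar is the list's median. Medians of the lists plotted, which leave out the cell type markers, run from -1.23 for replication-dependent histones to 1.11 for adult fast fibre genes, and all 30 mitosis genes lie below 0.

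Of 20 members known to respond to glucocorticoids 8 were higher and none lower, with a median of 0.84 (11 were higher with median-of-ratios scaling). Sgk1, a kinase that controls ion channels and transport, was at 13.4 and 14.2 FPKM at P7 and 88.8 and 58.5 FPKM at P14, a change of 2.05 ± 0.24 (limma adjusted p = 0.0164). Per1, a repressor of the circadian clock, was at 2.05 and 1.21 FPKM at P7 and 10.02 and 7.07 FPKM at P14, a change of 1.61 ± 0.22 (limma adjusted p = 0.0225). Dusp1, a phosphatase that switches off MAP kinases, was at 6.93 and 6.497 FPKM at P7 and 27.3 and 25.9 FPKM at P14, a change of 1.58 ± 0.16 (limma adjusted p = 0.0131). All 3 genes were more than 3 times higher in each P14 library than in either P7 library. Tsc22d3 (GILZ) rose from 17.2 and 18.2 to 57.2 and 46.8 FPKM and the transcription factor Zbtb16 from 2.98 and 2.52 to 10.4 and 9.82 FPKM, and Klf15, Klf9 and Pdk4 were called too. Without P7 replicate 1, P7 replicate 2 or P14 replicate 1 none of the 8 was called, and without P14 replicate 2 it was Sgk1 alone.

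Of 10 members of the thyroid hormone list 2 were higher: Klf9, a Krüppel-like factor induced by both hormones, at 8.45 and 9.02 FPKM at P7 and 25.2 and 25.6 FPKM at P14, and Hr (hairless), a corepressor of the thyroid hormone receptor, at 1.67 and 1.84 FPKM at P7 and 8.97 and 6.34 FPKM at P14. Per1 was the called member of 17 clock genes. Among 14 immediate early genes the orphan nuclear receptor Nr4a1 went from 2.096 and 2.59 to 18.3 and 13.7 FPKM, a change of 2.08 ± 0.18 (limma adjusted p = 0.00846), and Fos from 2.38 and 3.25 to 6.68 and 7.65 FPKM. Of these calls 1 immediate early gene was still called without P14 replicate 1 and without P14 replicate 2. Time of day at collection is not given in the sources used here.

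A window before a start of Slc25a25, the largest rise among protein-coding genes, is shown because it holds a motif of a known regulator of genes induced by activity and hormones, the factor CREB. The window is the 250 bases before the start in the RefSeq table for GRCm38.p6, 5′ to 3′ on the gene's strand. Capitals mark TGACGTCA, the cyclic AMP response element, which reads the same on both strands, was held by 508 of 32851 windows in the table (1.55%) and 277 of 11208 windows of members (2.47%), and was found before 1 of 3 starts of the gene.
Slc25a25 (chr2:32424067-32424316, minus strand): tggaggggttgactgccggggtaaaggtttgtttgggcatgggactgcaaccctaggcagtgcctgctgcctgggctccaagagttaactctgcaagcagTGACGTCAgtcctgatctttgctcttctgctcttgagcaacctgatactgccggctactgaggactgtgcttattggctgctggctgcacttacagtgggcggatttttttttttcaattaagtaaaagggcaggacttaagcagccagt
The first base of the match lies 150 bases before the start. A match describes the letters only, and which start was used cannot be read from these gene-level values.

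Protein turnover genes rose in part, with 5 of 22 members higher, none lower and a median of 0.48. The ubiquitin ligases Trim63 (MuRF1) and Fbxo32 (atrogin-1), both best known from muscle wasting, were at 12.1 and 12.8 FPKM at P7 and 41.2 and 35.4 FPKM at P14 and at 1.83 and 2.22 FPKM at P7 and 5.11 and 5.55 FPKM at P14. Fbxo40, given above, belongs to the same list, as does Bnip3, a mitophagy receptor, at 16.1 and 24.6 FPKM at P7 and 53.8 and 54.6 FPKM at P14. Of 11 muscle ankyrin and kelch proteins 2 were higher, Klhl33 and Ankrd23, a titin-binding ankyrin-repeat protein at 37.3 and 35.3 FPKM at P7 and 252 and 169.7 FPKM at P14. Small heat shock proteins and chaperones had 2 of 15 higher, Hspb6 at 23.1 and 25.2 FPKM at P7 and 68.8 and 67.7 FPKM at P14 and the myosin-folding methyltransferase Smyd1 at 25.5 and 25.7 FPKM at P7 and 60.8 and 51.9 FPKM at P14. Without any one P7 or P14 library Fbxo40 was the 1 turnover gene still called, and 1 ankyrin and kelch gene was called without P7 replicate 1 or either P14 library.

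Genes of cell division fell. Of 30 members of the mitosis and cytokinesis list 16 were lower and none higher, with all 30 below the shift and a median of -1.03, and 25 were lower with median-of-ratios scaling. Mki67, the proliferation antigen Ki-67, went from 15.7 and 15.5 to 6.94 and 5.07 FPKM, a change of -1.51 ± 0.20 (limma adjusted p = 0.02003). Ncapg, a condensin subunit, went from 4.17 and 4.37 to 1.73 and 1.01 FPKM and Nusap1, a spindle protein, from 4.12 and 4.69 to 1.59 and 1.52 FPKM. The mitotic kinase Cdk1 fell from 10.1 and 11.7 to 5.73 and 4.49 FPKM, its cyclin Ccna2 from 8.62 and 8.89 to 4.55 and 2.91 FPKM and topoisomerase Top2a from 16.1 and 14.7 to 8.55 and 5.85 FPKM. The groups did not overlap in any of these genes, as in 13.9% of all members in that direction, yet each was still detected at P14. None of the 16 was called without any one P7 or P14 library, although the values kept their direction.

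DNA replication and nucleotide synthesis genes had 4 of 24 members lower and none higher, with a median of -0.68. They were Rrm2, the regulated subunit of ribonucleotide reductase (5.04 and 5.02 to 1.86 and 2.15 FPKM), DNA ligase Lig1 (3.302 and 3.46 to 1.73 and 1.42 FPKM), Tyms and Prim1. Replication-dependent histones, which are made in S phase without a poly(A) tail and are kept by ribosomal depletion, had 14 of 52 members lower and none higher, with a median of -1.23 and 34 lower with median-of-ratios scaling. Hist2h3b went from 17.8 and 15.3 to 5.01 and 4.21 FPKM and Hist1h1a from 47.01 and 39.5 to 20.4 and 12.1 FPKM. Histone genes have near-identical copies, so the split between them is uncertain. Without any one P7 or P14 library no replication gene and at most 1 histone gene was called. Rbl1, the pocket protein p107 that is itself made in cycling cells, fell from 3.14 and 2.68 to 1.82 and 0.995 FPKM, and the quiescence-linked inhibitor Cdkn1c, at 88.95 and 85.6 FPKM at P7 and 75.4 and 51.01 FPKM at P14, was not called.

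Promoters of mitotic genes are known for CCAAT boxes bound by NF-Y and for the CHR element TTTGAA, and 3 of those that fell are shown for this reason, with CCAAT on either strand in capitals. The windows are again 250 bases before the RefSeq start on GRCm38.p6.
Mki67 (chr7:135716380-135716629, minus strand): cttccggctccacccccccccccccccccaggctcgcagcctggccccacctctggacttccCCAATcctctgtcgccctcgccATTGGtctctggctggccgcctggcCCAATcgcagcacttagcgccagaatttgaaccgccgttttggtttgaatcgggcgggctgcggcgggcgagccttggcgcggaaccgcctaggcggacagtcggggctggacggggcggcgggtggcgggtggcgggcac
Cdk1 (chr10:69352913-69353162, minus strand): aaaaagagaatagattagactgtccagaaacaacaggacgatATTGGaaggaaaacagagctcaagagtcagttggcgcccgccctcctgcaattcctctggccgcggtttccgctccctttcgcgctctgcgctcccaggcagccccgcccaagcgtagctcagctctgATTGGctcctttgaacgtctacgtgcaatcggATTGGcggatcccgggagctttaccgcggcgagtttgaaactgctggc
Top2a (chr11:99024190-99024439, minus strand): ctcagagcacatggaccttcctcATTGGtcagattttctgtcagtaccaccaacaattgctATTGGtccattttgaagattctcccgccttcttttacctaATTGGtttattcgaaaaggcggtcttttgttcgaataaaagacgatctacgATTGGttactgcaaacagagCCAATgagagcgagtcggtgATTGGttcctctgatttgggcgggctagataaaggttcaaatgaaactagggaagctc
Mki67 and Cdk1 hold 3 matches each and Top2a 6. Of 26 mitosis genes with a window 21 held CCAAT (80.8%), against 3552 of 8683 members with a window (40.9%) and 33.8% of all 32851 windows. TTTGAA was held by 11 of the 26 (42.3%) against 1090 of 8683 (12.6%). Other lists had high shares too, in 15 of 21 replication genes (71.4%) and in 12 of 17 glucocorticoid-responsive genes (70.6%), of which some rose and none fell. A gene with several windows has more places to hold a match. By window, CCAAT was held by 23 of 28 for mitosis, 18 of 27 for replication and 15 of 29 for glucocorticoid-responsive genes. Over all members it was held by 3953 of 11208 windows (35.3%). Among the mitosis genes called lower, 11 of the 14 with a window held CCAAT.

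Most of the imprinted growth network, a set of genes expressed from 1 parental copy and active in fetal tissue, fell. Of 20 members 12 were lower and none higher, 19 were below the shift and the median was -1.14. At the Dlk1-Dio3 locus on chromosome 12 both the paternally expressed coding genes and the maternally expressed non-coding RNAs fell. Dlk1, a membrane-bound Notch-like protein, went from 92.2 and 84.6 to 21.9 and 19.8 FPKM, a change of -2.29 ± 0.20 (limma adjusted p = 0.00834). Rtl1, a retrotransposon-derived gene, went from 23.3 and 23.4 to 6.22 and 4.74 FPKM and Mirg, a microRNA host transcript, from 107 and 109.9 to 31.1 and 27.7 FPKM. Meg3 was at 521 and 539.9 FPKM at P7 and 222 and 202 FPKM at P14 and Rian, a snoRNA host, at 1414 and 1628 FPKM at P7 and 627 and 540 FPKM at P14, so these 2 remained among the most abundant RNAs of the list at P14. Rtl1 lies opposite a non-coding RNA, and use of the strand in counting is not stated, so reads of the pair cannot be told apart.

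Igf2, the fetal insulin-like growth factor, went from 322 and 346 to 177 and 163 FPKM, a change of -1.23 ± 0.23 (limma adjusted p = 0.0419). Plagl1, a zinc-finger regulator of imprinted genes, went from 56.3 and 59.7 to 18.2 and 19.6 FPKM, and Peg10 from 8.65 and 8.04 to 2.56 and 2.04 FPKM. Mest, Zim1, Ndn and Peg3 fell by 1.28, 1.31, 1.05 and 0.98. In each of these genes both P14 libraries lay below both P7 libraries, as in 13.9% of all members. With median-of-ratios scaling 16 of 20 were lower, and 4 were still called without P14 replicate 2, 1 without P14 replicate 1 and 0 without either P7 library.

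**Figure D4:**
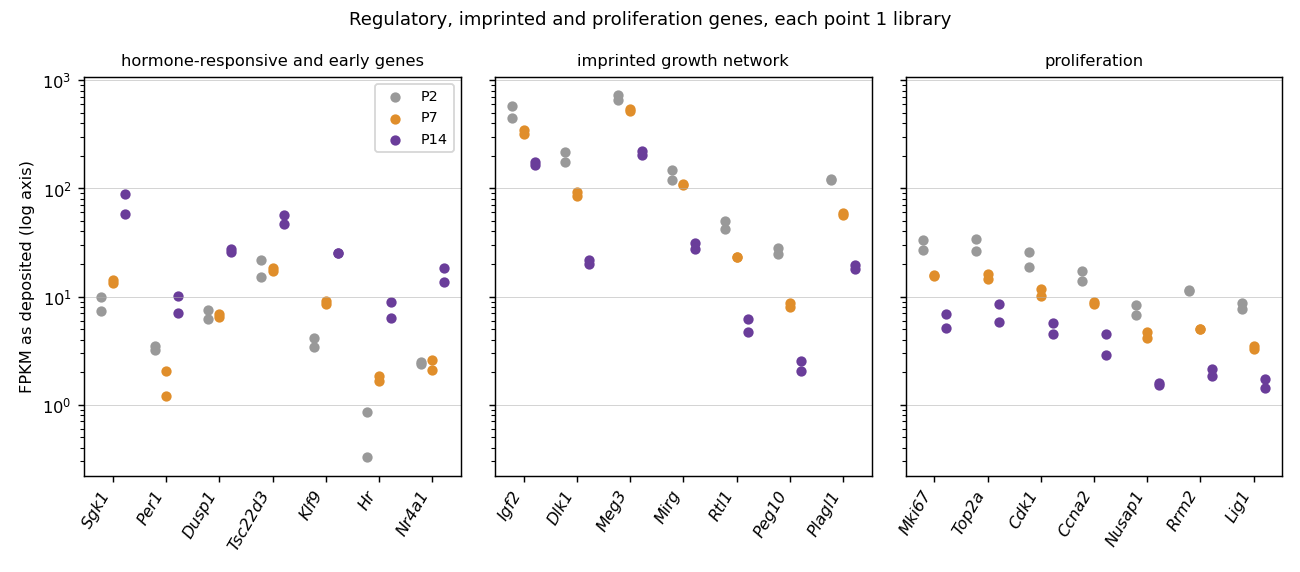
Points are single libraries at P2 (grey), P7 (orange) and P14 (purple), 2 per stage, in FPKM as deposited on a log axis. Sgk1 climbs from 13.4 and 14.2 FPKM at P7 to 88.8 and 58.5 FPKM at P14, whereas Dlk1 falls from 92.2 and 84.6 to 21.9 and 19.8 FPKM and Mki67 from 15.7 and 15.5 to 6.94 and 5.07 FPKM.

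Growth signalling genes had a median of -0.06, close to the shift. Of 36 members 1 was higher and 1 lower (Igf2), against 1.95% and 2.75% of all members. The one that rose was Smad3, which carries TGF-beta and myostatin signals, at 5.88 and 6.61 FPKM at P7 and 15.5 and 14.8 FPKM at P14. Igf1, the postnatal insulin-like growth factor, was at 30.01 and 36.2 FPKM at P7 and 27.3 and 25.8 FPKM at P14, a change of -0.56 ± 0.18 that was not called (limma adjusted p = 0.106, and 0.0416 with median-of-ratios scaling). Myostatin (Mstn), which limits muscle mass, was at 22.2 and 24.8 FPKM at P7 and 23.9 and 19.6 FPKM at P14 and was not called. None of 65 cytosolic ribosomal proteins and none of 24 ribosome biogenesis genes was called, with medians of 0.23 and 0.12. Rpl3 was at 51.1 and 44.6 FPKM at P7 and 54.2 and 44.9 FPKM at P14 and its muscle paralogue Rpl3l at 29.4 and 27.7 FPKM at P7 and 102 and 65.6 FPKM at P14, neither of them called (limma adjusted p = 0.524 and 0.333), though Rpl3l had 0.039 without P2.

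The genes the study set out to follow, those of fusion and migration, had list medians near the shift. Over all members 1.95% were called higher and 2.75% lower. Of 30 fusion genes 2 were lower and none higher, with a median of -0.19. They were Adam12, a metalloprotease of fusing myoblasts, at 4.95 and 4.34 FPKM at P7 and 2.01 and 2.25 FPKM at P14, and N-cadherin (Cdh2) at 3.13 and 2.91 FPKM at P7 and 1.64 and 1.58 FPKM at P14. Myomaker (Tmem8c), the membrane protein required for fusion, was at 3.895 and 3.86 FPKM at P7 and 5.19 and 4.06 FPKM at P14, a change of -0.06 ± 0.16 that was not called (limma adjusted p = 0.843). Of 36 migration and chemotaxis genes 1 was lower, Mmp9, which is also a neutrophil product, and the median was -0.17. No member of 24 myogenic regulators was called, with a median of 0.05. Myod1 was at 5.300 and 5.54 FPKM at P7 and 10.04 and 6.800 FPKM at P14, Myog at 17.1 and 17.2 FPKM at P7 and 22.2 and 17.8 FPKM at P14 and Pax7, the satellite cell factor, at 1.63 and 1.61 FPKM at P7 and 1.29 and 1.502 FPKM at P14, and for Myog and Pax7 the changes were -0.05 ± 0.20 and -0.39 ± 0.16.

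At the neuromuscular junction 2 of 20 members were higher and 1 lower, with a median of -0.04. Chrnd, the delta subunit of the acetylcholine receptor, fell from 1.27 and 1.47 to 0.658 and 0.422 FPKM. Scn4a, which rose, is given above. Chrne, the adult epsilon subunit, was at 4.76 and 3.28 FPKM at P7 and 11.01 and 6.78 FPKM at P14 and was not called, and Chrng, the fetal gamma subunit, was below the limit in every one of the 4 libraries at 0.645, 0.587, 0.517 and 0.234 FPKM. Of 11 tubulin isotypes Tubb2b fell from 4.54 and 4.87 to 2.98 and 2.76 FPKM, while Tuba8, at 8.02 and 6.496 FPKM at P7 and 38.7 and 27.5 FPKM at P14, was not called (limma adjusted p = 0.0535). Among 17 splicing regulators Mbnl3, a muscleblind form of dividing myoblasts, fell from 1.31 and 1.85 to 0.667 and 0.351 FPKM.

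Of 46 extracellular matrix genes 5 were lower and none higher, with a median of -0.22, and with median-of-ratios scaling 10 were lower. Postn (periostin), a protein of growing connective tissue, went from 228 and 276 to 116 and 107 FPKM, a change of -1.42 ± 0.22 (limma adjusted p = 0.0306). The proteoglycan Vcan went from 27.6 and 27.1 to 11.9 and 11.2 FPKM, the fetal fibrillin Fbn2 from 5.81 and 6.06 to 2.77 and 2.17 FPKM, and Col12a1 from 29.9 and 29.2 to 19.4 and 17.2 FPKM. The remaining one was Spp1. None of 15 basement membrane genes was called, with a median of 0.14. No call of the matrix list was made without any one P7 or P14 library.

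Many markers of neutrophils and marrow, bone and cartilage fell, while tendon markers did not pass the test. Of 15 neutrophil and marrow markers 6 were members and 5 of these were lower, and the summed level of the list went from 99.4 and 42.6 FPKM at P7 to 4.51 and 4.31 FPKM at P14, with Elane, Camp, Retnlg and Ctsg at 0 in both P14 libraries. S100a8 was at 34.1 and 13.6 FPKM at P7 and 1.98 and 0.9598 FPKM at P14 and S100a9 at 33.6 and 13.8 FPKM at P7 and 1.25 and 1.23 FPKM at P14. The stefin Stfa1 was at 7.89 and 6.96 FPKM at P7 and listed at 0 in both P14 libraries, as was BC100530 (9.67 and 3.33 FPKM at P7). Of 13 bone markers 11 were members and 5 were lower, with a sum of 112 and 50.4 FPKM at P7 and 26.0 and 27.8 FPKM at P14. Ibsp, bone sialoprotein, was at 14.7 and 7.45 FPKM at P7 and listed at 0 at P14, and the collagenase Mmp13 was at 6.72 and 3.47 FPKM at P7 and 0.0554 and 0.109 FPKM at P14. Of 10 cartilage members 5 were lower, with a sum of 86.6 and 91.2 FPKM at P7 and 30.1 and 30.0 FPKM at P14, and Col2a1, the main cartilage collagen, went from 25.9 and 28.6 to 3.34 and 2.71 FPKM. Some members of these lists, such as Ngp, Ibsp, Mmp13, Lect1 and Col10a1, reached 1 FPKM in the P7 libraries only. They had to differ between the stages, and the counts include them. The first P7 library stood above the second by a median of 0.95 in the neutrophil genes and 0.82 in the bone genes. Without P7 replicate 2 there were 3 neutrophil and 2 bone calls, and without P7 replicate 1 or either P14 library none, while no cartilage gene was called without any one of the 4. The part of bone, cartilage or marrow taken along with the muscle in these falls and in those of Spp1, Mmp9 and the matrix genes was not tested.

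Mast cell proteases were lower in part, with Cma1 at 7.604 and 10.2 FPKM at P7 and 4.11 and 3.87 FPKM at P14 and Tpsb2 at 4.81 and 5.43 FPKM at P7 and 3.003 and 2.94 FPKM at P14 called among 5 members. Erythroid genes split: the anion exchanger Slc4a1 fell from 5.104 and 2.95 to 1.02 and 1.04 FPKM, and Epb4.2 was lower too (1 erythroid gene was still called without P14 replicate 2), while the transferrin receptor Tfrc, which other cells also use for iron uptake, rose from 34.4 and 39.6 to 147 and 136 FPKM. Among 10 adipocyte genes the hormone Adipoq fell from 11.3 and 10.7 to 4.300 and 4.82 FPKM and the lipid droplet protein Plin4, which muscle also makes, rose from 13.6 and 12.7 to 47.04 and 39.1 FPKM. No marker of satellite cells (15 members), endothelium (17), mural cells (11), macrophages (12), Schwann cells (8) or tendon (10) was called, and of 14 fibroblast markers the actin-severing protein Gsn alone was higher, at 34.3 and 32.9 FPKM at P7 and 89.7 and 79.6 FPKM at P14. Satellite cell markers stood at a median of -0.11, and in which cells the proliferation genes fell was not tested.

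**Figure D5:**
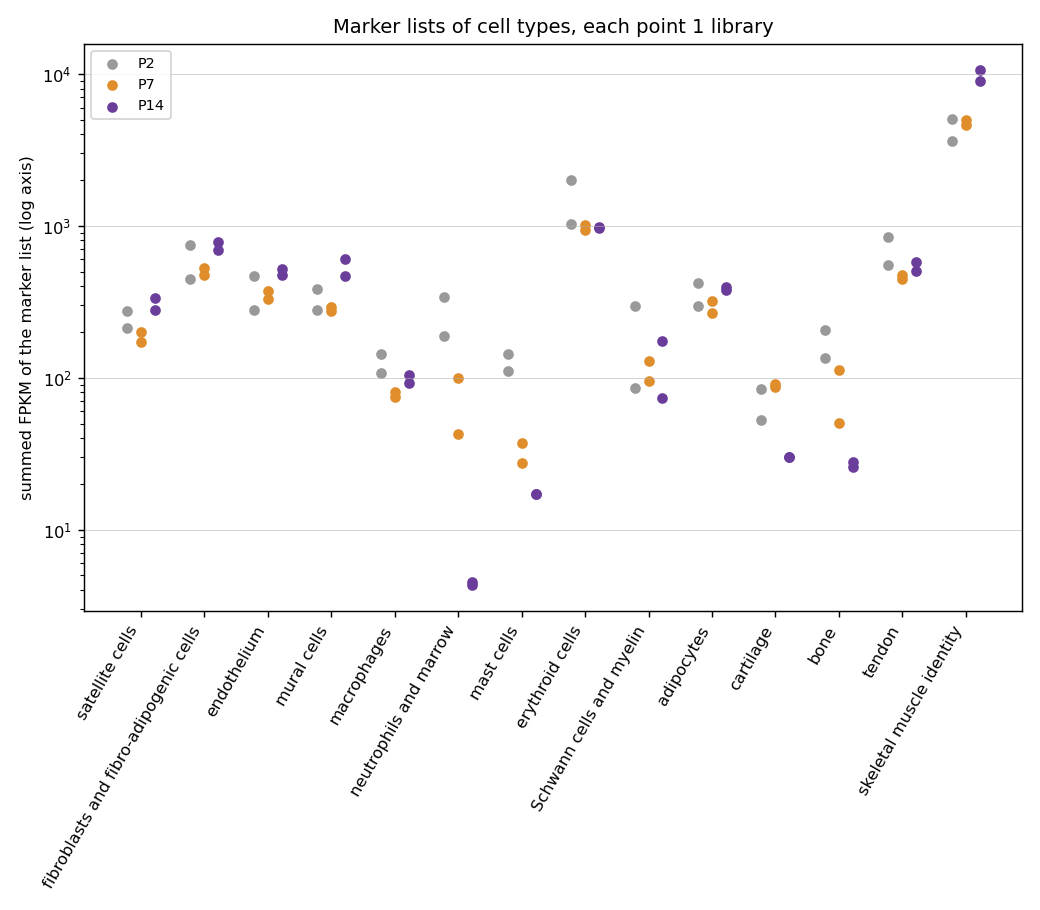
Points are the summed FPKM of each marker list in single libraries at P2 (grey), P7 (orange) and P14 (purple) on a log axis. Neutrophil and marrow markers drop from 99.4 and 42.6 FPKM at P7 to 4.51 and 4.31 FPKM at P14 and bone markers from 112 and 50.4 to 26.0 and 27.8 FPKM, while the skeletal muscle sum rises from 4571 and 4962 to 10630 and 8958 FPKM. The muscle sum includes Ttn, listed at 0 in the first P14 library.

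Among non-coding members 4 of 235 lincRNAs were higher and 21 (8.94%, against 2.75% of all members) were lower, Mirg among them. Of 180 antisense transcripts 5 were higher and 9 (5%) lower, against 1.95% and 2.75% of all members. The largest non-coding changes were in short RNAs whose FPKM rests on few fragments and a very short length. The microRNA hairpin mmu-mir-668, which lies in the Dlk1-Dio3 cluster at chr12, was at 248 and 114 FPKM at P7 and listed at 0 in both P14 libraries and both P2 libraries. The snoRNAs Gm24853 and Gm26205, at 19.8 and 20.3 and 8.58 and 9.204 FPKM at P7, were likewise listed at 0 at P14, and so was the hairpin Gm22181 (27.5 and 14.4 FPKM at P7). In the other direction Snora34 and Scarna3a were listed at 0 in both P7 libraries and had 19.7 and 8.35 and 17.9 and 7.65 FPKM at P14. The antisense transcript C130080G10Rik rose from 0.418 and 0.573 to 27.5 and 5.92 FPKM, and the pseudogene Gm26712 from 0.0000415 and 0.0162 to 13.6 and 5.85 FPKM. The 2 mature RNAs of the mir-668 hairpin are given from RefSeq on GRCm38.p6 with the seed, bases 2 to 8, in capitals, and the values above are for the hairpin gene, not for either of them.
mmu-miR-668-5p (chr12:109734733-109734756, plus strand): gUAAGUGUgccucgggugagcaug
mmu-miR-668-3p (chr12:109734774-109734797, plus strand): uGUCACUCggcucggcccacuacc

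Whether a gene changed more in the second week than in the first was tested in the same fit as the change from P7 to P14 minus that from P2 to P7, each relative to its own median shift (0.26 and -0.26). This difference was above 0 for 2 members (0.0158%) and below 0 for 5 (0.0395%) at an adjusted p below 0.05 by limma, and no protein-coding gene was called, while 844 protein-coding members had an unadjusted p under 0.05. Both weeks share the P7 libraries, so an error at P7 pushes the weekly changes in opposite directions. The called features were the short RNAs and pseudogenes Snora34 and Gm13841 above 0 and Gm24853, Gm26132, Gm26205, mmu-mir-668 and Gm14654 below 0, and 5 of these 7 are listed at 0 in whole stages. P7 against P2 itself gave 10 higher (0.0789%) and 7 lower (0.0552%) members.

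The weekly values of the main genes, side by side, were as follows. Myh4 changed by 4.52 in the first week and 1.00 in the second, and Pvalb by 3.30 and 1.65. Myh8 changed by -1.15 and then -4.01, and Sln by -0.99 and then -3.61. Slc25a25 changed by -0.02 and 3.10, Ckmt2 by 0.85 and 2.17, and Sgk1 by 0.88 and 2.05. Dlk1 changed by -0.87 and -2.29, and Mki67 by -0.65 and -1.51. For none of these genes was the difference between the weeks called, and a difference that misses the threshold with 2 libraries per stage does not show that the weeks were alike.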

How the data were processed

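Per the labels' protocols, total RNA (200 ng) of hindlimb muscle went through ribosomal depletion and a stranded library kit, 2 libraries at each of 3 stages. The submitters' processing notes list CASAVA 1.2-14, TopHat2 2.0.8, Cufflinks 2.2.1, Cuffdiff 2.2.1 and the build GRCm38, without order or settings. The deposited FPKM are 1 value per gene and library, and annotation, strand use and scaling between libraries are not given in the sources used here. The authors' deposited tables also hold a fold change, written as a ratio for rises and with a minus sign (kept as a score) for falls, and an unadjusted p-value, per the file headers; the p-values served in 1 alternative.

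Values were analysed as log2(FPKM + 1) for 13566 genes with at least 1 FPKM in 2 of the 6 libraries, of which 12672 are members. Stage means were fitted in limma 3.58.1 (R 4.3.3), using its trended variance prior (3 residual and 3.80 prior degrees of freedom). The P14 minus P7 contrast less its median over members was tested, two-sided, with Benjamini-Hochberg adjustment over all fitted genes, and the median SE was 0.19. The code was tested on simulated data. Members and gene lists were chosen with earlier results of these data known. Named genes are the 10 largest protein-coding rises and falls among called genes of at least 5 FPKM with separated libraries, 4 non-coding genes each way, up to 3 of the largest changes of each list, and a fixed set of myosins, receptors, regulators and sex-linked genes. Other called list members were named after their values were seen. A few called list members enter the counts and are not reported here by name. The lists hold 1166 genes, of which 1148 matched, and the rest are not analysed here. Alternatives covered scaling, pseudocount, filters, libraries, a replicate block and a sex term. The FPKM give no absolute depth, so no counting interval is given.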

Additional observations from a re-analysis of the deposited data

Results flagged for a closer look

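The 7 features below changed differently in the second week and in the first by limma's test of the difference itself, each on the log2(FPKM + 1) scale relative to the weekly median shifts, and where a stage is listed at 0 the fitted difference depends on the added 1 and is no fold. The pseudogene Gm13841 had a difference of 4.42, with 75.4 and 80.8 FPKM at P2, 2.59 and 3.48 at P7 and 5.67 and 4.78 at P14. The pseudogene Gm14654 had -2.58, with 1.34 and 1.19, 3.22 and 2.99 and 0.788 and 0.766 FPKM at the 3 stages. The snoRNA Snora34 had 6.25, with 6.595 and 7.02 FPKM at P2, 0 at P7 and 19.7 and 8.35 at P14. Features listed at 0 in both P2 and both P14 libraries were the snoRNAs Gm24853 (difference -9.31), Gm26132 (-5.62) and Gm26205 (-7.13) and the hairpin mmu-mir-668 (-15.32), with 19.8 and 20.3, 4.62 and 5.103, 8.58 and 9.204 and 248 and 114 FPKM at P7. All features but Gm13841 reached 1 FPKM at just 1 of P7 and P14. The filter for members thus fixed that such features differed between those stages.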

How the results depend on the processing

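Among the 187 genes named by rule, none of the 87 called changed direction under any alternative run that included it, but the number called moved. Called genes named outside that rule were not checked for direction. For P14 against P7 (247 higher, 349 lower) the counts were 1187 and 213 with no shift subtracted, 997 and 756 with median-of-ratios scaling, 628 and 563 with quantile normalization, and 535 and 1397 when libraries were scaled to their protein-coding sum with no shift subtracted. They were 450 higher with a pseudocount of 5, 858 and 1035 with no filter, 803 and 698 in a fit of the 4 P7 and P14 libraries only, 80 and 105 with a sex term, and 210 lower at an absolute change of at least 1. The authors' p-values, adjusted here, an alternative added after the data were seen, gave 1450 and 688, and 493 of the 596 calls above were called in the same direction there. Leaving out 1 library gave 3 to 817 higher and 9 to 712 lower; with a P7 or P14 library left out, the lone library is assumed to vary like the others. Of the 596 calls 10 were made in each of these 6 fits and 422 under each of the 4 other scalings.

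With the replicate number as a block 49 were higher and 90 lower. The numbers do not pair the libraries, since the replicate differences of P7 and P14 correlated at 0.04 across members, those of P2 and P14 at -0.19 and those of P2 and P7 at -0.04.

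For the second-week minus first-week change (2 above 0, 5 below) median-of-ratios, quantile and protein-coding-sum scaling each gave 4 and 9, a pseudocount of 5 gave 1 and 8, no filter 127 and 232, member genes only 9 below, no variance trend 10 below, and a sex term 1 above. Leaving out 1 library gave 0 to 5 above and 4 to 19 below. The cause of these shifts was not tested, beyond the fewer samples of the fits that leave libraries out. The absolute depth is unknown, and low and short genes are the least certain.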

Other observations

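Other called genes, chosen after their values were seen and given with no test of their grouping, fall into a few families. Enzymes of amino acid use were higher at P14: the transaminases Got1 (14.3 and 12.2 FPKM at P7, 62.02 and 54.2 at P14), Got2 (26.3 and 24.9 and 71.6 and 66.6) and Gpt2 (5.11 and 4.08 and 25.1 and 21.1), and the branched-chain amino acid enzymes Bckdha (5.07 and 4.08 and 16.5 and 13.9), its kinase Bckdk (19.1 and 16.7 and 58.4 and 41.4), Ivd (4.698 and 4.42 and 14.8 and 15.2) and Aldh6a1 (5.66 and 7.12 and 18.3 and 16.8). The ankyrin and SOCS box proteins Asb14, Asb18 and Asb11 rose by 1.64, 1.46 and 1.15. Coenzyme Q genes Coq10a, Adck3 and Coq5 rose by 1.69, 1.59 and 1.19.

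Among the falls several X-linked genes are known from fetal or growing tissue: Igsf1 (9.22 and 9.56 FPKM at P7, 3.71 and 2.498 at P14), Nrk (20.97 and 24.7 and 8.42 and 7.87), Agtr2, the second angiotensin receptor (8.802 and 11.8 and 3.85 and 2.800), Capn6 (24.9 and 25.4 and 14.9 and 12.5) and the proteoglycan Gpc3 (29.7 and 29.4 and 15.6 and 20.03). The first P7 library is the one with high Xist, and both P14 libraries carried Ddx3y. In these 5 genes the 2 P7 libraries lay within 1.5 times of each other. The part of sex in these falls was not tested apart from the fit with a sex term. Plag1 and Hmga1, growth regulators of fetal tissue, went from 2.04 and 2.17 to 0.925 and 0.882 FPKM and from 5.39 and 4.198 to 2.49 and 2.37 FPKM. The acetylcholine receptor subunit Chrna9 fell from 3.81 and 3.73 to 0.624 and 0.774 FPKM. The stefins Stfa2 and Stfa3 and Gm5483, relatives of Stfa1 with near-identical copies, were at 6.85 and 3.03, 7.17 and 2.38 and 10.8 and 2.88 FPKM at P7 and listed at 0 at P14.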
